A study of Mus musculus with 36 samples.

Results

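The comparison described here sets mouse jejunal organoids kept in senescent conditioned medium with a blocking antibody (SCM + anti-Ptk7, here blocked SCM) against organoids kept in quiescent conditioned medium with a control antibody (QCM + IgG, here QCM). The 12 libraries that carry one of these treatment labels are its members, out of 36 in the series, and each group holds replicates 1 to 6. Both media come from mouse embryonic fibroblasts, which were arrested by low serum for QCM and made senescent by X-rays or doxorubicin for SCM, and the labels do not say which of the inducers was used. All organoids were of C57BL/6 jejunum, so blocked SCM and QCM differ in the fibroblasts that conditioned the medium and in the antibody added. The other groups were SCM + IgG, complete media + IgG, and Wnt5a with either antibody (Wnt5a + anti-Ptk7, Wnt5a + IgG). No library of QCM with anti-Ptk7 was analysed here, so the effects of the medium and of the antibody cannot be told apart in this comparison, and values of SCM + IgG are given beside its results.

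Ptk7 is a receptor of the Wnt pathways with an inactive kinase domain, and Wnt5a is a ligand of the noncanonical branch. In the intestinal epithelium, YAP and TAZ act with TEAD factors to switch on genes such as Ccn1 and Ccn2, and genes of this kind are raised in fetal and regenerating epithelium. Organoids grown from crypts hold stem cells, Paneth cells and the enterocyte, goblet, enteroendocrine and tuft lineages. The comparison asks whether organoids in senescent medium match those in the non-senescent control medium once Ptk7 is blocked, and what stays different.

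The QCM libraries held between 11969302 and 15783703 counts and the blocked SCM libraries between 10581350 and 14742230. Levels are given as counts relative to the library total (CPM) after scaling by the trimmed mean of M values (TMM), as the lowest, the median and the highest of 6 libraries or as mean ± SD (n = 6), and log2 fold changes with their SE. The summed level of 8 epithelial markers was 11249 to 13795 CPM in QCM and 12020 to 15729 CPM in blocked SCM, while 12 fibroblast markers together reached 4.93 to 9.36 and 4.27 to 10.9 CPM. The 8 immune markers together were at 12.5 to 18.4 and 10.7 to 16.7 CPM. In another pair of measures the groups were unlike, and their part in the results was not tested beyond the alternatives given below. Mitochondrial genes took between 0.282% and 0.371% of the counts in QCM replicates 1 to 4, and 0.706% and 0.707% in QCM replicates 5 and 6, against 0.606% to 0.791% in blocked SCM. The median log2 CPM of transcripts under 1000 bases minus that of transcripts over 5000 bases was −3.05 to −2.81 in QCM and −3.33 to −3.01 in blocked SCM.

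Of 15497 genes tested, 297 were higher and 176 lower in blocked SCM where a call needed more than a 1.5-fold change and an adjusted p under 0.05 (edgeR quasi-likelihood test, Benjamini-Hochberg adjustment over all genes tested). These 473 genes are 3.05% of those tested, 1.92% higher and 1.14% lower. The split varied with the method, with 278 higher and 201 lower in voom with limma on TMM-scaled values, 245 and 241 after quantile normalization, 335 and 145 in edgeR scaled by library size alone, and 338 and 123 when only the 12 libraries were fitted. Without a fold-change cutoff the split turned, with 610 higher and 864 lower, and a test against a 1.5-fold change (glmTreat in edgeR) called 29 genes. Without QCM replicate 3, 219 were higher and 113 lower. With the mitochondrial share as a covariate 903 genes were called, and without the 4 QCM libraries of low mitochondrial share 58, both settings chosen after seeing the data. The libraries of the groups did not overlap at 225 of them, and at 645 genes (4.16%) in all. The senescent medium without the blocking antibody, SCM + IgG, differed from the same QCM libraries at 140 genes (0.903%), 118 of them higher. Within SCM, anti-Ptk7 changed 190 genes (1.23%), 90 of them higher. Without SCM + IgG replicate 1 these counts were 54 and 105, in DESeq2 264 and 295, and with the replicate number as a block 496 and 399, where blocked SCM against QCM had 669. The 3 comparisons share libraries, so their counts are not independent. The study's methods state in general that replicates are mice, but nothing in the labels ties a library to a separate culture or mouse, and p-values may then measure only the spread between these samples, which may be technical.

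**Figure D1:**
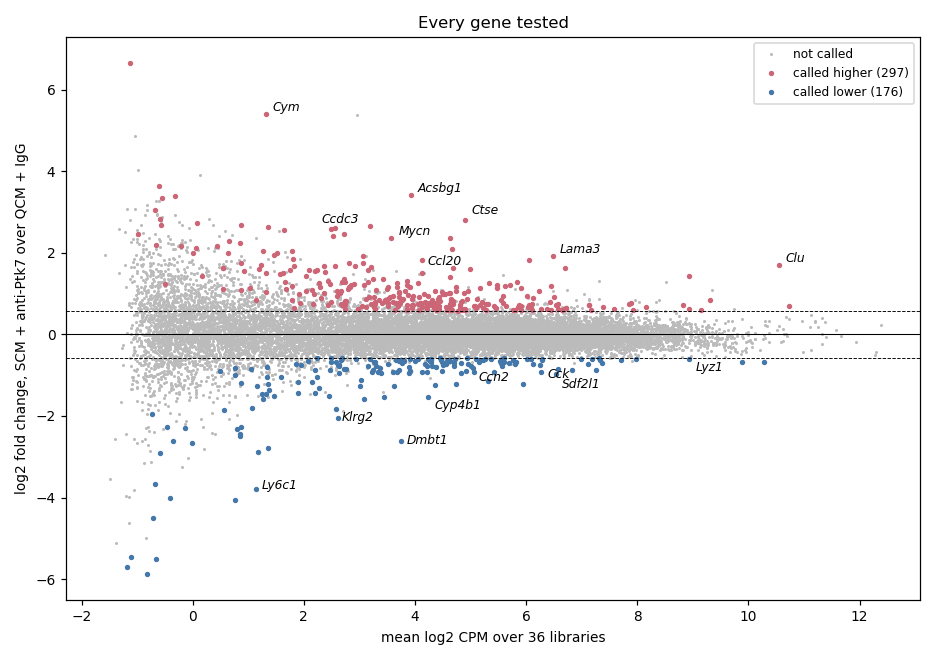
Each point is 1 of the 15497 genes tested, with its mean log2 CPM over the 36 libraries on the horizontal axis and its log2 fold change of blocked SCM over QCM on the vertical axis, and dashed lines mark a 1.5-fold change. The 297 genes called higher are red and the 176 called lower are blue, with Cym, Clu and Ccdc3 above the body of grey points and Dmbt1 and Ly6c1 below it.

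As whole profiles, the distance between the mean log2 CPM of blocked SCM and of QCM was 53.8 (Euclidean, over all genes tested), which an exact permutation of the 12 labels placed at p = 0.00216, the smallest that 924 relabellings can give. The distance of SCM + IgG from QCM was 48.9 (exact permutation p = 0.0108). The blocked organoids were thus 4.89 farther from QCM than the unblocked ones, a difference that did not pass an exact permutation test over the SCM libraries (two-sided p = 0.405). Among the 500 most variable genes the difference was −0.00331 (exact permutation p = 0.998), so its direction was not settled. For 7888 genes (50.9%) the 95% interval of the fold change lay inside the 1.5-fold cutoff, which bounds their difference between blocked SCM and QCM. For another 7136 genes that were not called it reached beyond the cutoff, so that a change of that size was not excluded with 6 libraries a group.

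Genes that SCM had changed were closer to QCM under the antibody but remained apart from it. For each replicate number, genes were chosen by their call in SCM + IgG against QCM without any library of that number, between 15 and 278 genes, and their mean log2 difference along the direction of the call was then read in the libraries left out. SCM + IgG differed from QCM by 1.10 ± 0.296 (SD, n = 6, range 0.761 to 1.39) on this scale and blocked SCM by 0.847 ± 0.230 (0.555 to 1.10). The readings share the QCM library left out. Blocked SCM lay above QCM in 6 of 6 numbers and below SCM + IgG in 6 of 6, by −0.254 ± 0.109 (exact sign-flip permutation p = 0.0312 for each, the smallest that 6 numbers can give). Each library left out for 1 number had helped choose the genes of the other numbers. The 6 readings are thus not independent, and these p-values are approximate. The pairing by number also rests on no factor named in the labels. In the Wnt5a libraries, the same genes differed from complete media by 2.16 ± 0.441, and anti-Ptk7 moved them by 0.000890 ± 0.124 (exact sign-flip permutation p = 0.969). Leaving out a replicate number altogether put the blocked value between 0.546 (without number 1) and 1.19 (without number 3).

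Genes chosen in the same way from blocked SCM against QCM (283 to 503 genes) gave another picture, in a reading added after seeing the data. In the libraries left out they differed from QCM by 0.748 ± 0.148 in blocked SCM and by 0.310 ± 0.0877 in SCM + IgG. Blocked SCM differed from SCM + IgG along that direction by 0.438 ± 0.0980, and Wnt5a + anti-Ptk7 from Wnt5a + IgG by 0.480 ± 0.0687. Each value was above 0 in 6 of 6 numbers (exact sign-flip permutation p = 0.0312, approximate for the same reasons).

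**Figure D2:**
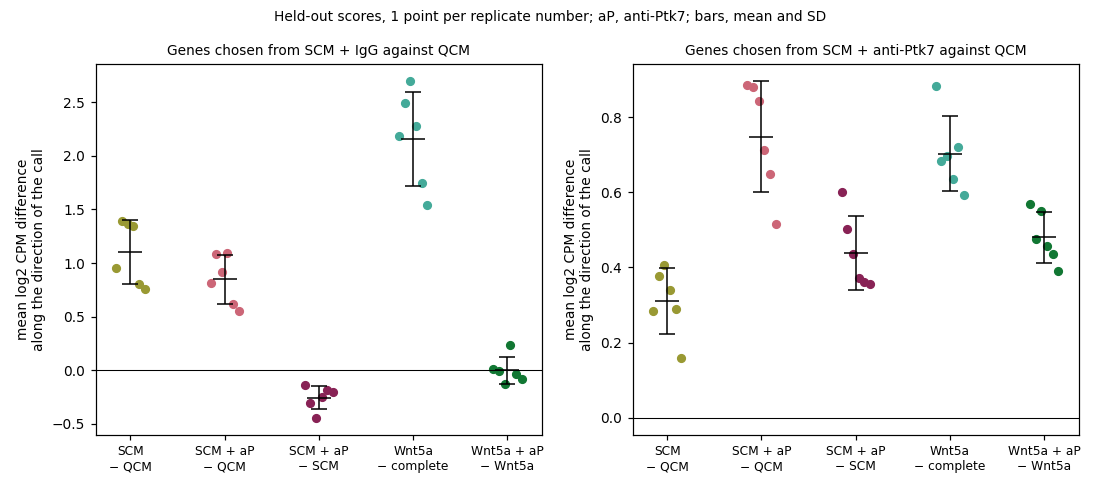
Mean log2 CPM difference along the direction of the call, 1 point per replicate number with the mean and SD as bars, for genes chosen without that number from SCM + IgG against QCM (left) or from blocked SCM against QCM (right), where aP is anti-Ptk7. On the left blocked SCM averages 0.847 over QCM and SCM + IgG 1.10, and on the right they average 0.748 and 0.310.

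The 297 higher and 176 lower genes were also read in the Wnt5a and complete media libraries, which entered their choice only through the shared filter and the shared estimate of the spread. Of the higher genes, 143 (48.1%) were called higher in Wnt5a + IgG against complete media, where 8.29% of all genes tested were, with a median log2 fold change of 0.63. In Wnt5a + anti-Ptk7 against Wnt5a + IgG, 36 of them (12.1%) were called higher against 0.452% of all genes, and the median was 0.42. Of the lower genes, 27 (15.3%) were called lower under Wnt5a against 1.88% of all genes, and 28 (15.9%) under anti-Ptk7 in Wnt5a against 0.432%, with a median of −0.43. In all, anti-Ptk7 changed 137 genes (0.884%) in Wnt5a. The Wnt5a comparisons share the Wnt5a + IgG libraries with each other. The test of whether anti-Ptk7 acted differently in SCM and in Wnt5a called 0 genes in edgeR, the only tool run for it. Of 15497 genes tested, 602 had an unadjusted p under 0.05, fewer than that threshold gives by chance.

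Promoters are shown for 3 genes that stand for the patterns described next: Ccdc3 and Ccl20, which were higher in blocked SCM than in SCM + IgG, and F3, a YAP/TAZ target called higher than QCM in SCM with and without the antibody. The sequences are the 250 bases before the transcription start, from RefSeq on GRCm38.p6, plus strand, with capitals at matches to 3 motifs searched on both strands: GGAATG of TEAD factors, TGANTCA of AP-1 and GCGTG of the aryl hydrocarbon receptor. The Ccl20 promoter (chr1:83116516-83116765) held 1 TEAD and 1 aryl hydrocarbon receptor match, that of F3 (chr3:121723287-121723536) held 2 AP-1 matches, and that of Ccdc3 (chr2:5137526-5137775) held 2 aryl hydrocarbon receptor matches.
Ccl20: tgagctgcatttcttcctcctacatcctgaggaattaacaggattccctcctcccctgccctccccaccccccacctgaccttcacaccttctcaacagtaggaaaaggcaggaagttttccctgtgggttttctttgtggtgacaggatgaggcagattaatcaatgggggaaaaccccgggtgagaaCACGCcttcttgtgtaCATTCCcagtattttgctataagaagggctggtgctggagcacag
F3: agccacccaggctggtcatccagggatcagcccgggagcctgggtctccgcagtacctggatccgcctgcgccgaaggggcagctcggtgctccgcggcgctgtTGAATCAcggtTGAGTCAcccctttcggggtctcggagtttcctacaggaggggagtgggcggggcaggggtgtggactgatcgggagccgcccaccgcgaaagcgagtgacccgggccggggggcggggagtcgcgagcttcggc
Ccdc3: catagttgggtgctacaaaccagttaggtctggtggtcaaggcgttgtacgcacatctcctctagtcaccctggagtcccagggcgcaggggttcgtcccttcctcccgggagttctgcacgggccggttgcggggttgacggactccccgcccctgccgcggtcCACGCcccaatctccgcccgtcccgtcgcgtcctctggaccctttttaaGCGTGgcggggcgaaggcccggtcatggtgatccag
A TEAD match stood in 12.4% of 275 promoters of genes called higher, in 14.3% of 133 promoters of genes called lower, in 12.5% of 13366 promoters of genes tested and in 14.7% of all 32841 promoters. An AP-1 match stood in 9.45%, 6.77%, 5.33% and 7.81% in the same order. The letters of the aryl hydrocarbon receptor motif stood in 38.2%, 43.6%, 49.3% and 32.4%. These shares describe letters in windows of 250 bases before and 50 after the start, and 319 of the 473 genes had a promoter in the table.

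Several genes were higher in blocked SCM than in both QCM and SCM + IgG. Ccdc3, which encodes a secreted protein, stood at 1.11, 3.09 and 3.64 CPM (lowest, median and highest) in QCM, at 8.04, 19.4 and 20.8 CPM in blocked SCM and at 3.28, 5.14 and 7.97 CPM in SCM + IgG. All 6 blocked libraries lay above all libraries of QCM and of SCM + IgG. Ccdc3 rose 6.32-fold over QCM (log2 2.66 ± 0.32, edgeR adjusted p = 1.29e-06) and was higher than in SCM + IgG (log2 1.76 ± 0.30, adjusted p = 0.000997). In Wnt5a, its log2 fold change under anti-Ptk7 was 1.35 ± 0.30 (edgeR adjusted p = 0.00926). Gm26776 is annotated on the opposite strand over the same stretch of chromosome 2, with a log2 fold change of 2.60 ± 0.37, and since the counting is not stated to use strand, reads of the pair cannot be told apart. It is annotated as a lincRNA, although the study's methods state that reads in coding sequences were counted.

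Ccl20, the chemokine that draws CCR6-bearing lymphocytes and dendritic cells to the epithelium, stood at 5.21, 8.33 and 15.8 CPM in QCM, at 13.8, 36.2 and 41.9 CPM in blocked SCM and at 10.4, 11.5 and 13.5 CPM in SCM + IgG. Blocked replicate 1 lay within the QCM range and the other 5 above it. Ccl20 rose 3.52-fold (log2 1.81 ± 0.27, edgeR adjusted p = 5.19e-05), and against SCM + IgG its log2 fold change was 1.51 ± 0.27 (adjusted p = 0.00156). Tnfsf13b, the B-cell factor BAFF, stood at 2.94, 3.44 and 4.55 CPM in QCM, 7.55, 9.94 and 18 CPM in blocked SCM and 2.60, 3.85 and 6.96 CPM in SCM + IgG. Its blocked libraries were above all of both groups, and it rose 3.19-fold over QCM (log2 1.67 ± 0.34, edgeR adjusted p = 0.00178).

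Over all genes tested, 1.92% were called higher and 1.14% lower in blocked SCM against QCM, the shares to set beside the counts of each list. Of 17 genes tested in the list of chemokines and NF-kB feedback, 5 rose and 0 fell, with a median log2 fold change of 0.41 against 0.01 for all genes tested. Beside Ccl20 and Tnfsf13b these were the cytokine Tnf (4.13 ± 2.05 CPM in QCM and 9.29 ± 2.77 in blocked SCM, log2 1.16 ± 0.30), Tnfaip3 or A20, a feedback inhibitor of NF-kB (13.7 ± 3.50 and 30.9 ± 5.63 CPM, log2 1.17 ± 0.22), and Nfkbiz, an inducible IkB family member (22 ± 7.10 and 45.9 ± 9.5 CPM, log2 1.06 ± 0.18). Nfkbiz was chosen after its values were seen. In SCM + IgG against QCM the median of the list was 0.30 with 0 genes called higher, and within SCM the antibody raised 5 of them, against 0.581% of all genes tested.

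Of 10 genes of mucosal defence tested, 2 rose and 1 fell, against 1.92% and 1.14% of all genes tested. Duox2, which makes hydrogen peroxide at the apical membrane, rose from 2.44 ± 1.55 to 7.01 ± 1.96 CPM (log2 1.53 ± 0.41, edgeR adjusted p = 0.0136) and stood at 2.69 ± 1.41 CPM in SCM + IgG. Its maturation factor Duoxa2 was called at a log2 fold change of 1.20 ± 0.39, and lost the call in 8 of 12 fits that each left out 1 library. In the list of interferon response and antigen presentation, 2 of 20 genes rose, among them the transcription factor Irf1 (22.3 ± 3.73 and 36.4 ± 4.86 CPM, log2 0.71 ± 0.18).

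Hcn2, a cation channel opened by hyperpolarization, rose from 1.91 ± 0.516 to 6.86 ± 2.18 CPM (log2 1.85 ± 0.31, edgeR adjusted p = 0.000181) and stood at 2.25 ± 1.22 CPM in SCM + IgG. Mcoln3, an endolysosomal cation channel, had between 6 and 35 counts in the QCM libraries, between 58 and 204 in the blocked libraries and between 20 and 100 in SCM + IgG. Its blocked libraries all lay above those of QCM (log2 2.57 ± 0.41), with a log2 fold change of 1.15 ± 0.38 against SCM + IgG (edgeR adjusted p = 0.0976). Rassf10, of the Ras-association family, stood at 1.20, 1.45 and 2.62 CPM in QCM, 5.23, 7.69 and 16.5 CPM in blocked SCM and 1.67, 4.03 and 10.2 CPM in SCM + IgG, with no overlap between the first pair (log2 2.45 ± 0.40).

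Enzymes of xenobiotic metabolism rose in 2 of 21 cases, against 1.92% of all genes tested. These were the cytochrome Cyp3a25, from 41.9 ± 12 to 92.4 ± 17.5 CPM (log2 1.14 ± 0.19), and the sulfotransferase Sult1b1, from 28.4 ± 8.44 to 49.3 ± 4.22 CPM (log2 0.79 ± 0.18). With the mitochondrial share as a covariate the log2 fold change of Sult1b1 was 0.55, under the fold-change cutoff, and without the 4 QCM libraries of low mitochondrial share it was 0.37. Cyp1a1, the standard target of the aryl hydrocarbon receptor, was at 73.5 ± 40.2 CPM in QCM, 157 ± 68.2 CPM in blocked SCM and 60.1 ± 33.1 CPM in SCM + IgG. It missed the threshold against QCM (log2 1.09 ± 0.36, edgeR adjusted p = 0.0506) and passed against SCM + IgG (log2 1.39 ± 0.37, adjusted p = 0.0323). Against QCM it was called in 15 of 29 alternatives, among them DESeq2, both voom fits and the fits with the replicate number as a block.

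**Figure D3:**
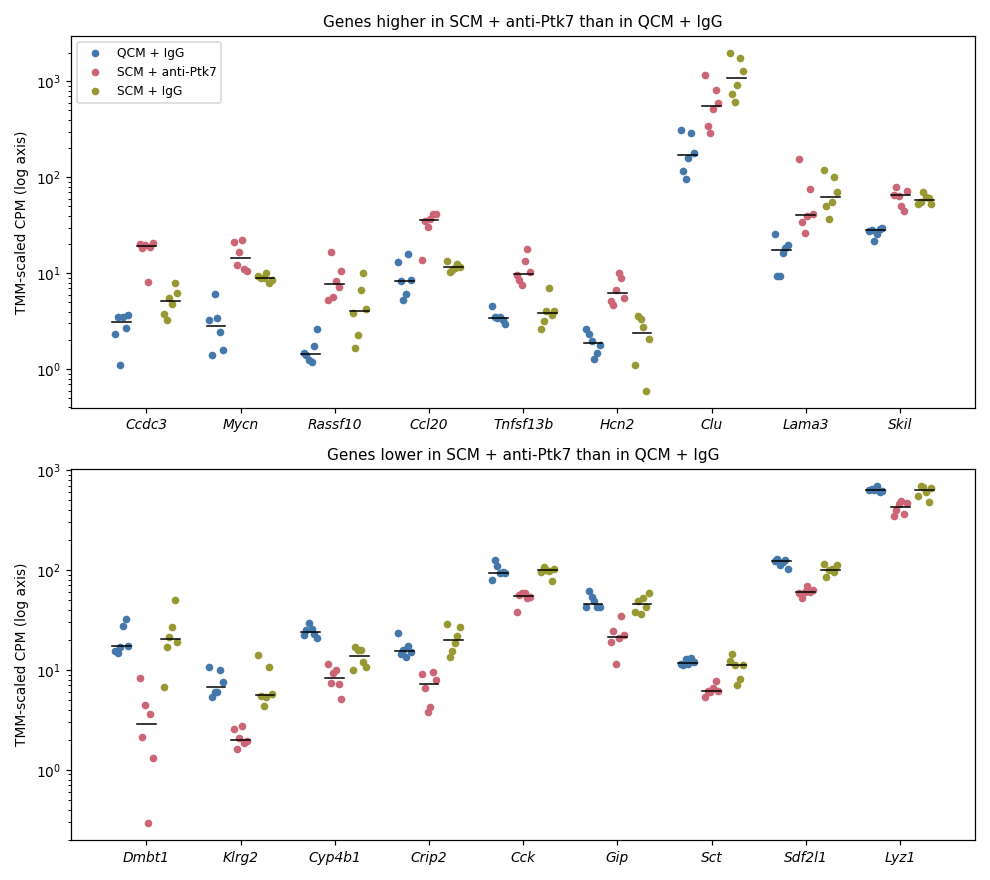
TMM-scaled CPM on a log axis, 1 point per library (6 a group) with the median as a black line, for 9 genes that rose and 9 that fell in blocked SCM against QCM, with SCM + IgG beside them. The medians of SCM + IgG lie near those of QCM for Ccl20, Tnfsf13b, Hcn2, Klrg2, Cck and Gip, and near or above those of blocked SCM for Clu, Lama3 and Skil.

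Other genes were called higher than QCM in SCM both with and without the antibody. Clu, the clusterin gene that marks revival stem cells, stood at 96.1, 169 and 309.8 CPM in QCM, at 289, 558 and 1165 CPM in blocked SCM and at 604, 1093 and 1979 CPM in SCM + IgG. The blocked libraries overlapped both other groups. Clu was 3.25-fold higher than in QCM (log2 1.70 ± 0.41, edgeR adjusted p = 0.00667), where SCM + IgG had a log2 fold change of 2.66 ± 0.42, and within SCM the antibody shifted it by −0.96 ± 0.40 (adjusted p = 0.202). P2rx2, an ATP-gated channel, rose from 2.49 ± 0.768 to 12.9 ± 7.44 CPM (log2 2.37 ± 0.42, edgeR adjusted p = 0.000328) and was at 15.6 ± 5.33 CPM in SCM + IgG. Mycn, a Myc family transcription factor, stood at 1.42, 2.82 and 6.13 CPM in QCM, 10.6, 14.4 and 22.1 CPM in blocked SCM and 7.87, 8.87 and 10.2 CPM in SCM + IgG. Its blocked libraries overlapped neither group, and it rose 5.14-fold over QCM (log2 2.36 ± 0.34, edgeR adjusted p = 3.45e-05).

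Lama3, a laminin chain of epithelial anchoring complexes, stood at 9.38, 17.3 and 25.8 CPM in QCM, 26.3, 40.4 and 157 CPM in blocked SCM and 37.3, 63.0 and 119 CPM in SCM + IgG. Its log2 fold change against QCM was 1.92 ± 0.49 (edgeR adjusted p = 0.0098) and 1.40 (adjusted p = 0.065) without blocked replicate 1. The call was also lost in voom with limma on TMM-scaled values and without the QCM libraries of low mitochondrial share. Gm29200 is annotated antisense within Lama3 and cannot be told apart from it here. The pseudogene Mgam2-ps rose from 9.27 ± 3.01 to 39.6 ± 6.88 CPM (log2 2.09 ± 0.21, edgeR adjusted p = 5.23e-08) and was at 24 ± 5.30 CPM in SCM + IgG.

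At the lowest levels, counts are given. Cym, the gene of the milk-clotting protease chymosin, held 7 counts in all in QCM with 4 libraries at 0, 315 counts in blocked SCM with between 22 and 77 a library, and 108 in SCM + IgG (blocked SCM against QCM, edgeR adjusted p = 8.41e-06). Ctse, the aspartic protease cathepsin E, held between 0 and 51 counts in the QCM libraries, between 32 and 209 in the blocked libraries and between 22 and 279 in SCM + IgG. Acsbg1, an acyl-CoA synthetase, held 64, 620 and 577 counts in all in the same order. Ctse and Acsbg1 passed in edgeR (adjusted p = 0.0097 and 0.00187) but not in voom with limma on quantile-normalized values (adjusted p = 0.147 and 0.0764).

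Of 13 genes tested in the TGF-beta and BMP response list, 5 rose and 0 fell, with a median log2 fold change of 0.64, beside 3 called higher and a median of 0.45 in SCM + IgG against QCM. Of all genes tested, 1.92% were called higher in blocked SCM and 0.761% in SCM + IgG, both against QCM. Skil, the SnoN feedback inhibitor of SMAD signaling, stood at 21.9, 28.2 and 29.4 CPM in QCM, 44.5, 64.8 and 79.8 CPM in blocked SCM and 52.8, 57.9 and 71.1 CPM in SCM + IgG. It rose 2.31-fold without overlap (log2 1.21 ± 0.18, edgeR adjusted p = 5.72e-05), and within SCM the antibody moved it by 0.08 ± 0.18 (95% interval −0.29 to 0.44). The BMP target Id1, chosen after its values were seen, rose from 15.5 ± 3.14 to 32.1 ± 9.46 CPM (log2 1.04 ± 0.16) and was at 30.2 ± 3.23 CPM in SCM + IgG. The ligand gene Tgfb1 rose from 1.81 ± 0.338 to 4.38 ± 1.25 CPM (log2 1.27 ± 0.31) and the transcription factor gene Atoh8 from 1.47 ± 0.479 to 3.23 ± 0.514 CPM (log2 1.13 ± 0.32). Pmepa1, another SMAD feedback gene, was called at 1.06 ± 0.35 and lost the call in 8 of 12 fits that each left out 1 library.

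Of 18 YAP/TAZ targets tested, 4 rose and 0 fell in blocked SCM against QCM, with a median log2 fold change of 0.26. In SCM + IgG against QCM the median was 0.90 with 3 genes called higher. Of all genes tested, 0.761% were called higher there and 1.92% in blocked SCM. F3, the tissue factor that starts coagulation, stood at 63.8, 122 and 217 CPM in QCM, 156, 332 and 722 CPM in blocked SCM and 186, 441 and 815 CPM in SCM + IgG (blocked SCM against QCM, log2 1.42 ± 0.42, edgeR adjusted p = 0.0248). The groups overlapped, and the call was lost without QCM replicate 2, 3 or 4 or without blocked replicate 1, with adjusted p up to 0.0981. The other genes of the list that rose were Arhgef17, a guanine nucleotide exchange factor (1.20 ± 0.662 and 4.94 ± 2.87 CPM), the ectonucleotidase Nt5e and the GTPase-activating protein Asap1, and Nt5e and Asap1 lost the call in 7 and 6 of 12 such fits. Without any 1 of QCM replicates 2, 3 and 4 or blocked replicate 1, 1 of the YAP/TAZ targets was called, and in voom with limma after quantile normalization 2 were.

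Among 19 genes of the fetal and regenerative epithelium, 2 rose (Clu and Ctse) and 1 fell (Ly6a), against 1.92% and 1.14% of all genes tested. The median log2 fold change of the list was 0.42 in blocked SCM and 1.11 in SCM + IgG, both against QCM. Of 19 keratins and squamous genes, 0 were called higher in edgeR, 1 passed the adjusted p without the fold-change cutoff, and the medians were 0.31 and 0.82.

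Some genes raised by SCM were not called against QCM under the antibody. Ccn2, the matrix-associated factor CTGF and a YAP/TAZ target, stood at 2.80, 12.5 and 23.2 CPM in QCM, at 17.9, 53.5 and 69.7 CPM in SCM + IgG and at 3.49, 7.46 and 16.1 CPM in blocked SCM. All blocked libraries lay below all SCM + IgG libraries and inside the QCM range. Within SCM the antibody effect on Ccn2 was a log2 fold change of −2.50 ± 0.52 (edgeR adjusted p = 0.00554), and against QCM the difference was −0.68 ± 0.51 (95% interval −1.72 to 0.35), which does not bound it within 1.5-fold. The rise in SCM + IgG itself had a log2 of 1.81 ± 0.50 and an edgeR adjusted p just under the threshold of 0.05. The serine protease gene Prss22 was at 1.34 ± 0.670 CPM in QCM, 5.55 ± 2.58 CPM in SCM + IgG and 1.16 ± 0.877 CPM in blocked SCM. Its antibody effect was −2.27 ± 0.50 (edgeR adjusted p = 0.0101) and its difference from QCM −0.22 ± 0.52 (95% interval −1.27 to 0.84). Ankrd1, another YAP target, held 5 counts in all in QCM, 72 in SCM + IgG and 9 in blocked SCM, and was too low to be tested. Of the counts in SCM + IgG, 30 came from replicate 1, and 1 library was at 0.

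Others lay between the groups, with an antibody effect that did not pass the threshold. Ccn1, or CYR61, was at 27.7 ± 4.49 CPM in QCM, 65.7 ± 24.2 CPM in SCM + IgG and 37.4 ± 12.1 CPM in blocked SCM (log2 against QCM 0.43 ± 0.27, 95% interval −0.13 to 0.98). Col18a1, the collagen that yields endostatin, was at 3.30 ± 1.69, 14 ± 6.29 and 5.79 ± 2.64 CPM in the same order, and the caveolin Cav2 at 11.6 ± 6.73, 42.3 ± 21.8 and 21.1 ± 10.1 CPM. With the replicate number as a block, Col18a1 and Cav2 were called higher in blocked SCM than in QCM (edgeR adjusted p = 0.0427 and 0.00714). The netrin Ntn4, which was lower in SCM + IgG than in QCM (2.16 ± 1.36 against 7.80 ± 2.28 CPM), was at 4.19 ± 1.30 CPM in blocked SCM. Every blocked library lay below every QCM library for Ntn4, but the edgeR adjusted p was 0.135. It was called lower when only the 12 libraries were fitted (edgeR adjusted p = 0.0426).

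Among the genes that fell, Dmbt1, a secreted mucosal pattern-recognition protein, stood at 14.7, 17.2 and 32.5 CPM in QCM, at 0.292, 2.87 and 8.39 CPM in blocked SCM and at 6.71, 20.2 and 49.6 CPM in SCM + IgG. Every blocked library lay below every QCM library (log2 −2.62 ± 0.47, edgeR adjusted p = 0.000449). The antibody effect on Dmbt1 was −2.78 ± 0.47 within SCM and −2.20 ± 0.47 within Wnt5a (edgeR adjusted p = 0.000902 and 0.00795). The lectin-like receptor Klrg2 fell from 7.62 ± 2.21 to 2.14 ± 0.451 CPM without overlap (log2 −1.83 ± 0.35, edgeR adjusted p = 0.00085) and was at 7.59 ± 3.87 CPM in SCM + IgG. The LIM-domain protein Crip2 fell from 16.6 ± 3.68 to 6.89 ± 2.47 CPM (log2 −1.27 ± 0.26) and was at 20.8 ± 6.11 CPM in SCM + IgG.

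Ly6c1, a surface antigen of the Ly6 family, held between 21 and 57 counts in the QCM libraries, between 9 and 74 in SCM + IgG and between 0 and 9 in the blocked libraries, of which 4 were at 0. The totals were 217, 270 and 14 counts, and no blocked library reached the lowest QCM library (edgeR adjusted p = 0.000184). Ly6a, or Sca-1, a mark of regenerating epithelium, stood at 88.0, 133 and 205 CPM in QCM, 167, 214 and 488 CPM in SCM + IgG and 40.2, 72.1 and 140.1 CPM in blocked SCM. Its call against QCM (log2 −0.88 ± 0.29, edgeR adjusted p = 0.049) was lost in 9 of 12 fits that each left out 1 library, and its antibody effect within SCM was −1.73 ± 0.30 (adjusted p = 0.000967). Genes of the Ly6, lysozyme, cytochrome P450, histone and ribosomal protein families have close copies among which short reads may be split, so values of single members are uncertain to that extent.

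Of 20 enterocyte digestive enzymes and transporters tested, 2 fell, Slc13a2 and Ace, against 1.14% of all genes tested. Other genes are named here for the size of their fall. The call of Ace was lost in 4 of the 12 fits that left out 1 library (QCM replicate 2 or 4, or blocked replicate 1 or 4) and when only the 12 libraries were fitted (edgeR adjusted p = 0.0602). Cyp4b1, a cytochrome P450, stood at 20.9, 24 and 29.5 CPM in QCM, 5.13, 8.40 and 11.5 CPM in blocked SCM and 9.90, 13.9 and 17.1 CPM in SCM + IgG. Blocked SCM and QCM did not overlap (log2 −1.53 ± 0.18, edgeR adjusted p = 1.40e-06), and the gene was lower in SCM + IgG than in QCM too (log2 −0.84 ± 0.18, adjusted p = 0.0131). Slc5a4b, of the sodium-glucose cotransporter family, fell from 12.9 ± 2.27 to 4.44 ± 2.85 CPM (log2 −1.53 ± 0.33). The dicarboxylate transporter Slc13a2 fell from 8.20 ± 4.77 to 1.95 ± 1.36 CPM (log2 −2.06 ± 0.48), with 2.54 ± 2.30 CPM in SCM + IgG. The zinc transporter Slc39a5 fell from 159 ± 28.2 to 87.2 ± 16.2 CPM (log2 −0.87 ± 0.19), and Cox6b2, the testis isoform of a cytochrome oxidase subunit, from 3.15 ± 0.888 to 0.905 ± 0.487 CPM (log2 −1.80 ± 0.34).

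Of 24 genes of enteroendocrine cells tested, 6 fell and 0 rose, against 1.14% and 1.92% of all genes tested. The median log2 fold change of the list was −0.16. Cck, the hormone of I cells, stood at 79.2, 94.4 and 127 CPM in QCM, 37.6, 55.2 and 59.0 CPM in blocked SCM and 76.8, 99.7 and 108 CPM in SCM + IgG. Every blocked library lay below every library of QCM and of SCM + IgG (against QCM, log2 −0.91 ± 0.13, edgeR adjusted p = 1.53e-05). Gip, the incretin of K cells, fell from 48.6 ± 7.71 to 22.1 ± 7.55 CPM (log2 −1.14 ± 0.21) and was at 46.1 ± 8.69 CPM in SCM + IgG. Sct, the secretin gene of S cells, fell from 12 ± 0.743 to 6.34 ± 0.774 CPM (log2 −0.92 ± 0.16) and was at 10.7 ± 2.68 CPM in SCM + IgG. Neurotensin (Nts) fell from 7.20 ± 2.97 to 2.51 ± 1.51 CPM (log2 −1.50 ± 0.40), and the other genes that fell were Gcg and Ghrl, which were chosen after their values were seen. The call of Nts was lost when only the 12 libraries were fitted with the replicate number as a block (edgeR adjusted p = 0.0631). Chga, the granin shared by most enteroendocrine cells, was at 96.9 ± 12.9 CPM in QCM and 98.7 ± 14.7 CPM in blocked SCM (95% interval of the log2 fold change −0.26 to 0.31). In bulk libraries, fewer cells of a type and less RNA per cell cannot be told apart.

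Of 7 genes of Paneth cells tested, 1 fell and 1 rose, against 1.14% and 1.92% of all genes tested. The median log2 fold change of the list was −0.38. Lyz1, the Paneth cell lysozyme, stood at 609, 628 and 698 CPM in QCM, 347, 429 and 489.6 CPM in blocked SCM and 476, 634 and 699 CPM in SCM + IgG, a fall without overlap between blocked SCM and QCM (log2 −0.60 ± 0.12, edgeR adjusted p = 0.00187). It sat near the 1.5-fold cutoff, and the call was lost without QCM replicate 4 or blocked replicate 1, 2 or 5, while the log2 fold change stayed between −0.65 and −0.55 over all 12 fits that each left out 1 library. It was also lost with library size alone, in voom on quantile-normalized values, when only the 12 libraries were fitted, without the 4 QCM libraries of low mitochondrial share, and with offsets for transcript length and GC (log2 −0.55). The antimicrobial angiogenin Ang4 rose from 77.7 ± 7.86 to 129.9 ± 29 CPM (log2 0.74 ± 0.13), and with the mitochondrial share as a covariate its log2 fold change was 0.54, under the cutoff. Of the stem cell genes, the transcription factor Ascl2 rose (log2 0.59 ± 0.13, a call lost in 5 of 12 such fits), and Lgr5 (log2 −0.35 ± 0.22) and Olfm4 (log2 0.11 ± 0.26) were not called. Of 15 genes of goblet cells tested, 1 rose and 1 fell, against 1.92% and 1.14% of all genes tested. The median log2 fold change of the list was −0.15. The granule transport gene Sytl2 rose from 11.2 ± 2.21 to 21.1 ± 4.12 CPM (log2 0.92 ± 0.27, a call lost in 3 of 12 such fits), and the kallikrein Klk1 fell from 8.76 ± 1.31 to 4.52 ± 1.20 CPM (log2 −0.95 ± 0.26). Both had no overlap between blocked SCM and QCM. The mucin Muc2, which was not called, was at 31.8 ± 8.53 CPM in QCM and 29.3 ± 7.32 CPM in blocked SCM (95% interval of the log2 fold change −0.61 to 0.37), and the enterocyte phosphatase Alpi had an interval of −0.51 to 0.14.

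Lists of cell division and of intestinal identity held no called gene in edgeR. Of 25 proliferation genes, 22 had a 95% interval inside the 1.5-fold cutoff, and 6 were lower at an adjusted p under 0.05 without the fold-change cutoff. Mki67, the marker of cycling cells, was at 276 ± 23.7 CPM in QCM and 265 ± 22.8 CPM in blocked SCM (95% interval −0.28 to 0.18). Of 17 intestinal identity factors, 13 lay inside the cutoff, such as Hnf4a, a nuclear receptor of the enterocyte program, with an interval of −0.24 to 0.11. Of 25 genes of cholesterol synthesis and uptake, 22 lay inside it and 0 were called higher.

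Of 21 genes of enterocyte lipid handling, 4 rose and 0 fell, against 1.92% and 1.14% of all genes tested. The median log2 fold change of the list was 0.28. Apob, the structural protein of chylomicrons, stood at 259, 379 and 519 CPM in QCM, 563, 682 and 920.5 CPM in blocked SCM and 480.0, 592 and 721 CPM in SCM + IgG, without overlap between blocked SCM and QCM (log2 0.85 ± 0.19, edgeR adjusted p = 0.00432). The fatty acid binding protein Fabp1 rose from 413 ± 67.5 to 676 ± 115 CPM (log2 0.71 ± 0.15). The lipid regulator Creb3l3 was called at 0.59 ± 0.18, a call lost in 6 of 12 fits that each left out 1 library. With the mitochondrial share as a covariate the log2 fold change of Fabp1 was 0.55, under the fold-change cutoff.

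Of 19 genes of the unfolded protein and integrated stress response, 2 fell and 0 rose, against 1.14% and 1.92% of all genes tested. The median log2 fold change of the list was −0.28. Sdf2l1, a chaperone cofactor of the endoplasmic reticulum, fell from 119 ± 9.43 to 60.6 ± 5.46 CPM without overlap (log2 −0.97 ± 0.10, edgeR adjusted p = 5.23e-08) and was at 102 ± 11 CPM in SCM + IgG. Chac1, a target of the integrated stress response that degrades glutathione, fell from 22 ± 2.57 to 12.9 ± 5.05 CPM (log2 −0.77 ± 0.19).

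Genes of ribosomal proteins and histones, whose transcripts are short, had lower values together. Of 74 cytosolic ribosomal proteins tested, 73 had a negative log2 fold change and 7 fell past the cutoff, with a median of −0.45 in blocked SCM and −0.06 in SCM + IgG, both against QCM. Rps19 fell from 80.2 ± 6.66 to 50.2 ± 8.87 CPM (log2 −0.68 ± 0.11) and Rpl13a from 50.3 ± 6.11 to 28.4 ± 5.68 CPM (log2 −0.83 ± 0.13). Of 24 replication-dependent histones tested, 6 fell and 0 rose (median −0.75), among them the linker histone Hist1h1b (95.4 ± 22 and 41.1 ± 19.4 CPM) and Hist1h2ag, with 107 counts in all in QCM and 19 in blocked SCM. Hist1h1b lost its call without QCM replicate 3, without blocked replicate 1 or 2, and with offsets for transcript length and GC. The call of Hist1h2ag was lost in DESeq2, and those of both without the QCM libraries of low mitochondrial share. Of the cytosolic ribosomal proteins, 3 were called without blocked replicate 2, 11 without QCM replicate 6, 13 without blocked replicate 4 and 14 without blocked replicate 5, and of the replication-dependent histones 3 without blocked replicate 1 or 2. Both lists were added after the calls had been seen.

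Transcript length moved with these falls. Genes called lower had a median transcript length of 1366.5 bases and those called higher 3473 bases, against 2959 bases for all genes tested, and 35.2% of the lower genes were under 1000 bases against 11.9% of all. With offsets for transcript length and GC content in each library, 240 genes were called higher and 116 lower. Under these offsets the cytosolic ribosomal proteins had a median log2 fold change of −0.34 with 4 called lower, and the replication-dependent histones a median of −0.68 with 2 called lower. The offsets were chosen after seeing the data.

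**Figure D4:**
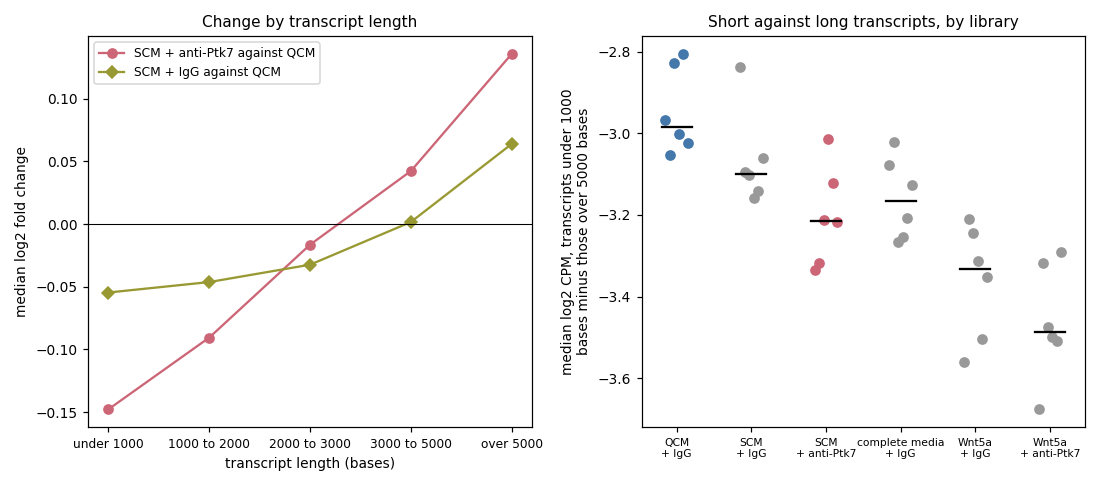
Left, median log2 fold change against QCM of genes grouped by transcript length in bases, for blocked SCM (circles) and SCM + IgG (diamonds). Right, median log2 CPM of transcripts under 1000 bases minus that of transcripts over 5000 bases, 1 point per library of each of the 6 groups with the group median as a line. Blocked SCM runs from −0.15 in the shortest group to 0.14 in the longest, and its libraries sit between −3.33 and −3.01 against −3.05 to −2.81 for QCM.

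The mitochondrially encoded proteins had a median log2 fold change of 0.50 over 10 genes tested, in a list also added after the calls had been seen. The 2 that rose were mt-Cytb, of complex III (1252 ± 372 to 2042 ± 458 CPM, log2 0.71 ± 0.21), and mt-Nd5, of complex I (450.3 ± 194 to 687 ± 84.9 CPM, log2 0.61 ± 0.18), and their calls were lost in 5 and 7 of 12 fits that each left out 1 library. Leaving out the 4 QCM libraries of low mitochondrial share, which were chosen by these genes' own counts, says nothing about them, so only other genes are read from it. It left 2 QCM libraries, called 39 genes higher and 19 lower, and kept 44 of the 473 calls. Of the 473 genes, 472, all but mt-Nd5, kept their direction, but the libraries fitted had also chosen these genes. That agreement therefore shows nothing about their stability. The fit without the 4 QCM libraries called 1 higher in the TGF-beta and BMP response (median 0.84), 1 in chemokines and NF-kB feedback (median 0.66), 0 of the YAP/TAZ targets (median 0.67) and 0 in enterocyte lipid handling (median 0.33). It called 2 lower in enteroendocrine cells (median −0.11), 3 cytosolic ribosomal proteins (median −0.62) and 0 replication-dependent histones (median −0.76). With the mitochondrial share as a covariate and all libraries, 545 genes were called higher and 358 lower, with 8 higher in chemokines and NF-kB feedback and 42 lower among the cytosolic ribosomal proteins.

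Ptk7 itself was at 5.32, 10.1 and 12.4 CPM in QCM, 4.94, 9.75 and 16.8 CPM in blocked SCM and 4.62, 13.9 and 18.1 CPM in SCM + IgG. The groups overlapped (log2 against QCM 0.10 ± 0.26, 95% interval −0.42 to 0.62), and since the antibody acts on the protein, the transcript is no check of the blockade. Transcripts of Wnt5a amounted to 9 counts in all in QCM, with 4 libraries at 0, and to 0 in the blocked libraries. Of 27 Ptk7 and noncanonical Wnt components tested, 0 were called higher and 0 lower in edgeR, 1 was lower at an adjusted p under 0.05 without the fold-change cutoff, and 11 had an interval inside the cutoff. The Wnt receptor Ryk was at 103 ± 4.69 CPM in QCM and 93.4 ± 13.1 CPM in blocked SCM (log2 −0.14 ± 0.17).

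**Figure D5:**
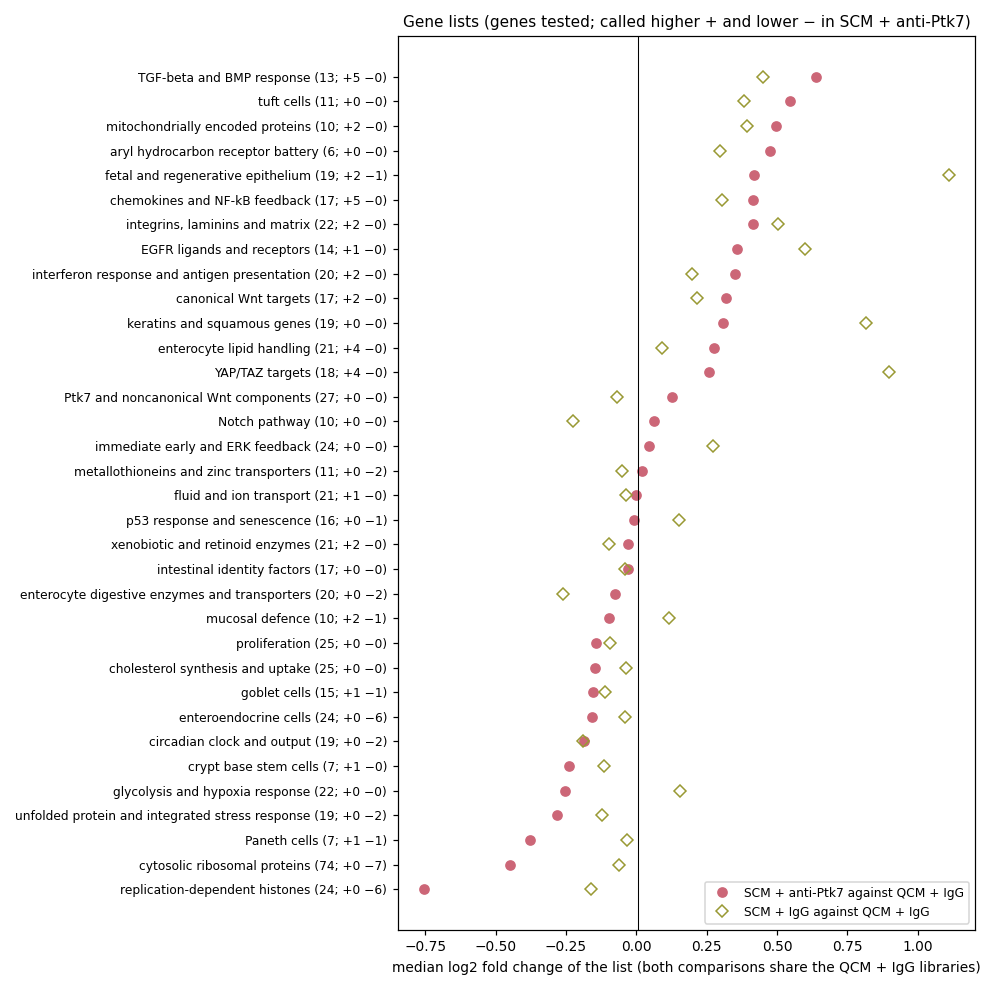
Median log2 fold change of each gene list against QCM, for blocked SCM (filled circles) and SCM + IgG (open diamonds), which share the QCM libraries. The numbers beside each name are genes tested and genes called higher (+) and lower (−) in blocked SCM, and the line marks the median of all genes. The medians of fetal genes and YAP/TAZ targets are at 0.42 and 0.26 in blocked SCM and 1.11 and 0.90 in SCM + IgG, and those of histones and ribosomal proteins at −0.75 and −0.45 and at −0.16 and −0.06.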

How the data were processed

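RNA-seq was measured in 36 organoid libraries of 6 groups, of which the 12 of SCM + anti-Ptk7 and QCM + IgG are compared here. The deposited values are raw counts per gene, made by the authors with HTSeqGenie and GSNAP (the submitters' processing notes also name limma and mm10) from single-end 50-base reads of SMART-Seq V4 and Nextera XT libraries. Per the study's methods the counted reads fell within coding sequences, but the deposited table also has counts for noncoding genes and pseudogenes (398 of the 473 called genes are protein coding in GENCODE M21), so the counted regions are not settled. Strand use and annotation release are not given in the sources used here. Of 52636 genes listed, 147 had no symbol, and 15497 passed edgeR's filterByExpr.

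Counts were scaled by TMM and fitted with edgeR 4.0.16 (R 4.3.3, quasi-likelihood, 6 group means over 36 libraries, no block). A call needed more than a 1.5-fold change and a Benjamini-Hochberg adjusted p under 0.05. Alternatives used limma 3.58.1 and DESeq2 1.42.0, and the fit was tested on simulated data. Transcript lengths and gene positions came from GENCODE M21 (GRCm38) and promoters from RefSeq (GRCm38.p6). Whole-profile distances and held-out scores were tested by exact permutation, two-sided, although the held-out readings are not independent of each other. All 12 libraries entered every comparison unless a library is named as left out, and intervals and p-values cover the spread among these libraries. The members and gene lists were chosen with earlier results of these data known. Named genes are the 12 rising and 12 falling called genes with the largest changes whose libraries do not overlap and whose mean log2 CPM is over 1, up to 4 called genes of each list or its 2 highest where none was called, the 10 genes most changed in SCM + IgG against QCM by the same limits, and a preset group of 14 marker genes. Predicted genes were counted but not described, except the antisense partners. A few genes that meet these limits are not reported here.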

Additional observations from a re-analysis of the deposited data

Results flagged for a closer look

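In 14 of 242 gene and group pairs of the named genes, 1 library stood apart from the other 5 on a log2 scale. The gap, as a share of the group's range of log2 CPM, was over Dixon's 95% critical value, where chance gives about 1 in 20. All values printed are TMM-scaled CPM, on which these shares differ. In SCM + anti-Ptk7, replicate 1 was the lowest for Ccl20 (13.8, others 30.4 to 41.9), Cck (37.6, others 52.1 to 59.0), Chga (71.4, others 97.8 to 114) and Vim (0.573, others 1.83 to 3.26), and the highest for Pfkp (357, others 274 to 299). Replicate 4 of SCM + anti-Ptk7 was the lowest for Ccdc3 (8.04, others 18.4 to 20.8), for its antisense partner Gm26776 (5.19, others 10.5 to 15.8) and for Ace (2.48, others 4.66 to 6.62). Replicate 2 was the lowest for Prob1 (2.40, others 4.24 to 5.13) and replicate 6 for Hist1h1a (0, others 0.800 to 1.51). In QCM + IgG, replicate 3 was the lowest for Gm29200 (0.130, others 0.248 to 0.333) and the highest for Dennd4b (6.78, others 1.66 to 2.48). Replicate 4 of QCM + IgG was the lowest for Mcoln3 (0.380, others 1.57 to 2.28) and replicate 2 for Tgfb1 (1.17, others 1.82 to 2.15). The calls of Ccdc3, Ccl20, Cck, Mcoln3, Prob1 and Tgfb1 held in each of 12 fits that left out 1 library. Dennd4b lost its call in 3 of these fits, among them that without QCM + IgG replicate 3 (log2 fold change −0.98, edgeR adjusted p = 0.138), Ace in 4 and Hist1h1a in 7.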

How the results depend on the processing

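The 473 calls of SCM + anti-Ptk7 against QCM (297 higher, 176 lower) became 1474 without a fold-change cutoff (610 higher, 864 lower), 186 over 2-fold (133 and 53), 29 in a test against 1.5-fold with glmTreat (22 and 7), 903 with the mitochondrial share as a covariate (545 and 358), 58 without the QCM libraries of low mitochondrial share (39 and 19) and 356 with length and GC offsets (240 and 116). The last 3 were chosen after seeing the data. Leaving out 1 library gave 332 (without QCM replicate 3) to 556 (without QCM replicate 6), with 219 to 359 higher and 113 to 213 lower. The split of 297 to 176 became 245 to 241 in voom with limma on quantile-normalized values, 278 to 201 on TMM-scaled values, 385 to 175 in DESeq2, 335 to 145 with library size alone and 338 to 123 when only the 12 libraries were fitted. DESeq2 kept 434 of the 473 calls and quantile-normalized voom 384. SCM + IgG against QCM went from 140 calls to 264 in DESeq2, 496 with the replicate block and 54 without SCM + IgG replicate 1. The antibody effect in SCM went from 190 to 295, 399 and 105 under the same settings, and that in Wnt5a from 137 to 255 with the block. The difference of the distances to QCM turned to −0.00331 over the 500 most variable genes and was 5.31 after quantile normalization, 7.68 without SCM + IgG replicate 1 and 3.81 with length and GC offsets. The score of genes changed by SCM lay between 0.546 and 1.19 without 1 number. The log2 fold change of mt-Nd5 was −0.0130 without the QCM libraries of low mitochondrial share, which were chosen by such counts, so that this value shows nothing about its stability. The cause of these shifts was not tested.

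With the replicate number as a block, SCM + anti-Ptk7 against QCM had 669 calls (442 higher, 227 lower), 464 of the 473 among them. Same-numbered libraries of the groups compared deviated together with correlations from −0.0104 to 0.228, over 0.1 in 3 of 6 numbers (mean 0.0906, against −0.0183 for different numbers), and 8 of 12 libraries correlated best with their own. Replicates 1 and 5 had the highest values of the first principal component in each of the 6 groups. Numbers thus shared a pattern across the groups, although the labels name no factor and not every pair was over 0.1. The fit without the block was kept because the study's methods name no block. It leaves this pattern in the spread between libraries. With the block over the 36 libraries Cav2, Col18a1, Aldh1a3 and Cyp1a1 gained calls, and no named gene lost one. With the block over only the 12 libraries compared, those 4 genes and Ntn4 gained calls, and Nts, Ace, Duoxa2, Rpsa, Gdf15, Ciart, Dennd4b and Arl4c lost theirs. Of 82 named genes called, 54 were called in all 12 fits that each left out 1 library and 14 were lost in more than 4. Genes of few counts have the widest intervals, so that their differences were the least detectable.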
